A study of Mus musculus with 16 samples.

Results

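The comparison described here sets sorted regulatory T cells (Treg) against sorted naive CD4 T cells. It uses 4 of the 16 libraries of a mouse study of 5-hydroxymethylcytosine (5hmC) and all 177720 regions of its count table. Treg were sorted as CD4+eGFP+ cells, and naive cells as CD4+ cells that were eGFP-negative and CD25-negative with high CD62L and low CD44. All cells came from the spleen and lymph nodes of C57BL/6 mice aged 5 to 6 weeks with a Foxp3-eGFP reporter, so both groups carry the reporter allele. Both groups were measured in 2 pull-downs and 2 inputs. The other 4 pull-downs, from 2 kinds of Treg induced in culture, entered the fit to estimate the spread. They also entered the filter on reads and the scaling of the libraries. The labels do not say whether the 2 libraries of a group came from separate mice, so the spread behind each p-value may be only technical. These are bulk libraries, in which fewer cells of a type and less signal per cell cannot be told apart.

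5hmC is made from 5-methylcytosine by TET enzymes and is found over enhancers and the bodies of active genes. In Treg, loss of methylation at enhancers of Foxp3 and other lineage genes keeps the lineage stable, and 5hmC is a step on that path. In CMS-IP, bisulfite turns 5hmC into cytosine-5-methylenesulfonate, and an antiserum against this product pulls down the fragments that carry it. The values are reads in regions, scaled to the size of the library (CPM), and describe 5hmC enrichment within a library, not transcription and not the total amount of 5hmC.

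Of the 177720 regions, 135412 had enough reads to be tested. Treg libraries held 7664194 and 8347328 pull-down reads in these regions, against 7773777 and 9731897 in naive cells. Inputs of these cells held 1318606 to 1563165 reads. The sort was checked on lineage loci: Foxp3 had 36.6 and 41.1 CPM in Treg, against 14.9 and 17.6 CPM in naive cells, and Ikzf2 had 1381 and 1391 CPM in Treg, against 361.0 and 348.4 CPM in naive cells. Both genes were higher in both Treg libraries. Flicr, which lies next to Foxp3, was lower, with 14.3 and 15.8 CPM in Treg, against 17.7 and 21.3 CPM in naive cells (log2 -0.39). CD25 and CD44 were part of the gates, so changes over Il2ra and Cd44 cannot be told apart from the sort. B cell markers were higher for 5 of 13 genes and lower for 0, with a summed level of 293.0 and 289.1 CPM in Treg, against 257.1 and 258.4 CPM in naive cells; no marker was at 0 in all 4 libraries, and the part of such cells in the results was not tested. DESeq2 called 0 of the 13 in either direction. CD8 and NK cell markers were lower for 6 of 9 genes and higher for 2, myeloid and dendritic cell markers lower for 3 of 13 and higher for 1, and erythroid markers higher for 2 of 8 and lower for 0. Over all genes, 20.0% were higher and 19.2% lower.

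The differences were spread over a large share of the genome. Treg had more reads than naive cells in 17611 regions (13.0% of those tested) and fewer in 13710 (10.1%), by edgeR's quasi-likelihood test at an adjusted p of 0.05. Changes of at least 2-fold numbered 10807 higher (7.98%) and 4298 lower (3.17%). DESeq2 called 5654 higher (4.94% of the 114409 it tested) and 2498 lower (2.18%), and every one of these was also called by edgeR in the same direction. The same edgeR test on the inputs called 0 of 44917 regions, with 2276 at an unadjusted p under 0.05. Inputs were several times shallower, which limits what that test could call. Summed per gene, 2993 genes were higher (20.0% of 14951) and 2868 lower (19.2%), of which 492 (3.29% of all) and 155 (1.04%) changed at least 2-fold. DESeq2 called 1816 genes higher (12.1%) and 1459 lower (9.76%).

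Start sites of genes give the most readable examples of single regions, and the bases just upstream of 4 of them are shown because these regions changed most among those eligible, 2 in each direction. They were picked after values were seen, among 728 tested regions that cover the start of a gene with 1 RefSeq promoter and a like transcript length in the table. The sequences are RefSeq's, on GRCm38.p6, 250 bases upstream of the start, 5′ to 3′, with each CG dinucleotide, the site that carries most 5hmC, in capitals. The region coordinates further on are on mm9 and were not converted.
Noxa1: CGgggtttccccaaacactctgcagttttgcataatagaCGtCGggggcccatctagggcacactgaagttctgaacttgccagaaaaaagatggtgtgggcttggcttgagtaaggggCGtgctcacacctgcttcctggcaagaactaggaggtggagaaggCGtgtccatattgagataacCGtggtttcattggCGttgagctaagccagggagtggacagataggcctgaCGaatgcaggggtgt
Calhm1: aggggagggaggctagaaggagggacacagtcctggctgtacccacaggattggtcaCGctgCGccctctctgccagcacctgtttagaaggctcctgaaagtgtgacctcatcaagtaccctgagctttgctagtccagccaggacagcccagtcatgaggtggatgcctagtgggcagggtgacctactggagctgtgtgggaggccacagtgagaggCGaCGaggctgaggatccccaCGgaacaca
Slc15a1: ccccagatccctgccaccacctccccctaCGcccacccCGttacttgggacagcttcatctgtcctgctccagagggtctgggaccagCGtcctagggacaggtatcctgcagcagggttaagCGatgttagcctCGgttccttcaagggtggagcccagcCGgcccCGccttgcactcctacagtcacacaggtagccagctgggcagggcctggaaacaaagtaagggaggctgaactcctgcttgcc
Adamts14: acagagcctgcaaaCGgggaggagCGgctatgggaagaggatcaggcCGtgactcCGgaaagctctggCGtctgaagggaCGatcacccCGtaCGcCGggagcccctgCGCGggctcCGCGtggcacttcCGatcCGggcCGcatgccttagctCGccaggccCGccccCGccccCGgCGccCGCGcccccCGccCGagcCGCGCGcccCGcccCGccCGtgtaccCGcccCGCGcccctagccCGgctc
The stretches lie on the minus strand at chr2:25095206-25095455, chr19:47144175-47144424, chr14:121505255-121505504 and chr10:61273420-61273669.

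The region over the start of Noxa1, an activator of NADPH oxidase, had 14.8 and 15.6 CPM in Treg, against 5.13 and 5.14 CPM in naive cells (log2 1.56, SE 0.18). Its upstream bases hold 8 CG. The region over the start of Calhm1, a calcium-regulated ion channel, had 18.3 and 18.3 CPM in Treg, against 6.28 and 6.58 CPM in naive cells (SE of the log2 change 0.16), with 5 CG upstream. In both, the Treg libraries lie above the naive libraries without overlap. The start of Slc15a1, an oligopeptide transporter, had 7.67 and 7.32 CPM in Treg, against 21.4 and 21.7 CPM in naive cells (log2 -1.52, SE 0.15). The start of Adamts14, a protease that trims procollagen, had 3.32 and 3.43 CPM in Treg, against 9.10 and 9.56 CPM in naive cells (log2 -1.46, SE 0.23). Here the Treg libraries are the low ones. CG number differed between the 4 sequences, from 5 to the 35 of Adamts14. The median was 5 CG upstream of the 108 start-site regions called higher and 5 for the 97 called lower, against 6 for all 728 and 6 for all 32851 RefSeq promoters in the table.

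The classic Treg loci, a list of 39 genes that includes Foxp3, Ikzf2, Il2ra, Ctla4, Itgb8, Prr5l and Timd2, were set aside here, and of these Timd2 (log2 2.26), Prr5l (2.18) and Itgb8 (2.07) rose as much as the genes that follow. Outside them, the 12 largest gains that also held over the transcripts alone ran from log2 1.72 to 2.22. Among them were regulators of the cytoskeleton, a histone deacetylase and a Wnt ligand. Zc3h12c, a member of the Regnase family of RNases, had 192.8 and 190.4 CPM in Treg, against 49.95 and 48.7 CPM in naive cells (log2 1.96, SE 0.07, adjusted p = 8e-55). Hdac9, a class IIa histone deacetylase, had 320.4 and 312.4 CPM in Treg, against 89.7 and 85.8 CPM in naive cells (log2 1.85, SE 0.06). Both Treg libraries exceeded both naive libraries several-fold in each. Dock1, an activator of the GTPase Rac, had 69.7 and 70.9 CPM in Treg, against 16.5 and 19.3 CPM in naive cells (log2 1.96, SE 0.10). Coro2a, an actin-binding coronin, had 332.4 and 316.7 CPM in Treg, against 84.2 and 85.1 CPM in naive cells (log2 1.94, SE 0.06). Arhgap20, a GTPase-activating protein, had 441.7 and 438.3 CPM in Treg, against 125.1 and 119.8 CPM in naive cells (log2 1.85, SE 0.05). The rule that named these genes asked for no overlap between the groups, so a gap was given. Myo1e, a class I myosin, followed with log2 1.72 (SE 0.05), and Acot12, an acyl-CoA thioesterase, had log2 1.96 (SE 0.11). Gxylt2, a xylosyltransferase that acts on Notch, and Ceacam15 had log2 1.93 and 1.85. Wnt3, a Wnt ligand (log2 1.84), Ghrh, which encodes growth hormone-releasing hormone (1.98), and Obp2a, a lipocalin (2.22), rest on the fewest reads of the 12, with at most 28.01 CPM in a Treg library.

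The 12 largest losses ran from log2 -2.22 to -1.57. Slc4a4, a sodium bicarbonate cotransporter, had 128.8 and 127.2 CPM in Treg, against 414.0 and 409.0 CPM in naive cells (log2 -1.68, SE 0.05). Hs3st3b1, which adds 3-O-sulfate to heparan sulfate, had 61.9 and 64.7 CPM in Treg, against 225.8 and 237.8 CPM in naive cells (log2 -1.87, SE 0.06). For both, the Treg libraries lie far below the naive ones. App, the amyloid precursor, had 16.2 and 17.8 CPM in Treg, against 68.1 and 67.7 CPM in naive cells (SE of the log2 change 0.10). Igfbp4, whose product binds insulin-like growth factors, had 39.98 and 42.1 CPM in Treg, against 119.8 and 123.9 CPM in naive cells (log2 -1.57, SE 0.08). The neurotrophin receptors Ntrk3 (log2 -1.91, SE 0.15) and Ntrk2 (log2 -1.59, SE 0.10) both fell. Pdzrn3, Nacc2, Dmbt1, Pid1, Cd163l1 and Unc80 complete the set, with log2 changes of -2.22, -2.17, -1.91, -1.72, -1.64 and -1.64.

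The inputs place these levels. Pull-down and input are both scaled to their reads within the regions, so a ratio of pull-down to input of 1 stands for the average enrichment of the regions and not for none. Of the 12 gaining genes, 7 were above their own input in Treg and 0 in naive cells, and the median ratio of pull-down to input CPM was 1.09 in Treg and 0.254 in naive cells. Of the 12 losing genes, 0 were above their own input in Treg and 9 in naive cells, with median ratios of 0.361 and 1.18. Coro2a, with inputs of 157.4 and 147.9 CPM in Treg and 130.3 and 148.4 CPM in naive cells, stood clearly above its scaled input in Treg, while Zc3h12c and Dock1 lay near it.

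**Figure D1:**
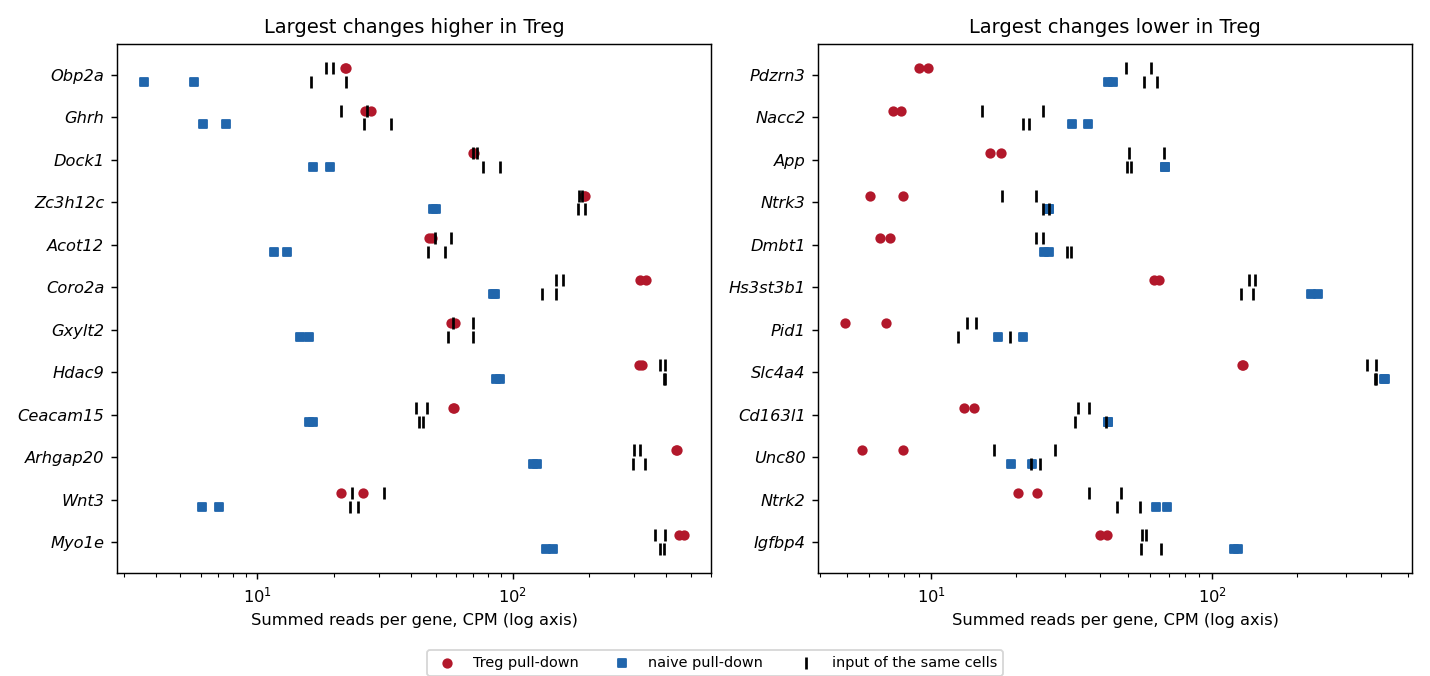
Summed reads per gene in CPM (log axis) for the 12 largest gains and the 12 largest losses outside the classic Treg loci, 1 point per library; black ticks are the inputs of the same cells, likewise scaled to reads within the regions. In the left panel naive points lie below their inputs for all 12 genes, and in the right panel Treg points do.

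The largest changes of single regions exceeded those of gene sums. Among called regions with a mean of at least 50 reads, an intron of A930011G23Rik (chr5:99815459-99818344) gained most, with 15.7 and 12.2 CPM in Treg, against 0.513 and 0.514 CPM in naive cells (log2 4.70, SE 0.31). An intron of Zc3h12c (chr9:51972807-51974534) had 11.6 and 14.2 CPM in Treg, against 0.897 and 0.308 CPM in naive cells (log2 4.45, SE 0.31). In both, naive cells were nearly empty of reads. Regions with fewer reads reached larger values, up to log2 6.12 in the stretch of Zc3h12c. The 3′ end of Rgs1, which dampens chemokine receptor signalling (chr1:146088534-146094741), had 31.4 and 36.7 CPM in Treg, against 2.95 and 2.88 CPM in naive cells (log2 3.54, SE 0.17). Enox1 (log2 3.27) and Hdac9 (3.59) had introns of like size of change. Among the losses, an exon of Vwf, von Willebrand factor (chr6:125627222-125630948), had 2.94 and 2.72 CPM in Treg, against 16.2 and 20.7 CPM in naive cells (log2 -2.71, SE 0.20). The 3′ end of Nfkbia, the inhibitor of NF-κB (chr12:56590641-56592563), had 4.73 and 3.66 CPM in Treg, against 26.3 and 23.3 CPM in naive cells (log2 -2.56, SE 0.17). The Treg libraries are the low ones in both. A region within Smc4, a condensin subunit, that covers the start site of Mir15b had 3.45 and 5.32 CPM in Treg, against 24.7 and 25.4 CPM in naive cells (log2 -2.50, SE 0.17).

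Some changed regions formed clusters along a locus. A stretch is taken as at least 5 neighbouring tested regions, all called the same way and at most 50 kb apart. There were 378 stretches higher in Treg, which hold 15.1% of the regions called higher, and 173 lower, which hold 8.21% of those called lower, with median spans of 33.9 and 34.4 kb. Of the higher ones 53 had at least 10 regions and 29 touched a classic Treg locus, and of the lower ones 15 and 0. Stretches are built from the calls and get no test. The longest by number of regions outside the classic loci lay over Rad51b, a gene of homologous recombination, with 22 regions in 122.3 kb (chr12:80796148-80918480). Its regions summed to 471.4 and 436.6 CPM in Treg, against 196.9 and 195.3 CPM in naive cells. The stretch over Myo1e had 21 regions in 117.3 kb, with 252.3 and 252.5 CPM in Treg, against 52.4 and 45.1 CPM in naive cells. In each the Treg libraries are the higher. One of 19 regions joined Ergic1 to Dusp1, a phosphatase that inactivates MAP kinases, and one of 19 regions lay over Ttc39b. Zc3h12c had a stretch of 19 regions of which 18 are intergenic.

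A long cluster of losses lay on chromosome 11. From Hs3st3b1 past Cox10, a haem farnesyltransferase of the cytochrome oxidase assembly path, to 2810001G20Rik, 51 of 58 tested regions were lower in Treg and 0 higher, over 390.2 kb (chr11:63686870-64077098). The regions summed to 475.9 and 478.2 CPM in Treg, against 1108 and 1149 CPM in naive cells. Hs3st3a1, a second 3-O-sulfotransferase, was also lower (log2 -2.30, on a mean of 43.5 reads). Since the 2 genes are close copies, reads could be split between them. Slc4a4 lost 44 of its 53 tested regions and gained in 0, and its 2 stretches held 17 and 15 regions. Stretches of losses also lay over Aebp2, a Polycomb cofactor, with 13 regions, and over Tgfbr3, the TGFβ co-receptor betaglycan, with 11. Tgfbr3 had 496.1 and 474.0 CPM in its stretch in Treg, against 863.1 and 856.7 CPM in naive cells.

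By number of called regions, Pvt1, the long noncoding RNA next to Myc, came first in number of gains with 61 of 139 assigned and tested regions higher and 10 lower. Over its transcript alone Pvt1 was not called (log2 0.05, adjusted p = 0.39 by edgeR), against log2 0.26 over all assigned regions. Adamts6, a secreted protease, had 48 of 69 higher and 0 lower, Hdac9 45 of 61 and 0, and Prkca, protein kinase C alpha, 45 of 77 and 0. Adamts6 had 389.2 and 383.2 CPM in Treg, against 146.9 and 146.9 CPM in naive cells. Among losses, Satb1, a chromatin organiser of T cells, had 41 of 110 regions lower and 6 higher, and Msra, a methionine sulfoxide reductase, 37 of 73 and 0. Of 7558 genes with at least 5 tested regions, 13 had every region higher and 7 every region lower. The first group includes Klrg1, an inhibitory lectin receptor on the classic list, with 6 of 6, Rgs16, a regulator of G-protein signalling, with 5 of 5, Tnfrsf1b, which encodes a TNF receptor, with 8 of 8, and Cd274, which encodes an inhibitory ligand of T cells, with 5 of 5. These 4 were picked after their values were seen.

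A gene's regions often did not move together. The Treg minus naive change differed between regions of the same gene in 5982 of 12455 genes (48.0%), by edgeR's within-gene test at an adjusted p of 0.05. Of these, 1953 had at least 1 region higher and 1 lower, and 2655 had a gene sum that was not called. Wwox, a tumour suppressor with a very long gene, had 42 regions higher and 30 lower, while its sum was 1161 and 1122 CPM in Treg, against 1129 and 1120 CPM in naive cells (log2 0.02, adjusted p = 0.72 by edgeR). Along the locus the 2 kinds were parted: all 30 losses lay within 583.0 kb of the first region, and 39 of the 42 gains lay beyond them. Tiam1, a Rac activator, had gains from 1.65 to 147.4 kb and losses from 163.6 to 354.6 kb, with a sum that was not called (log2 0.10, adjusted p = 0.062 by edgeR). In Akap6, an anchor of protein kinase A, losses ended at 227.1 kb and gains began at 253.9 kb. Bcl11b, a T cell identity factor, had 13 gains and 19 losses that were interleaved.

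**Figure D2:**
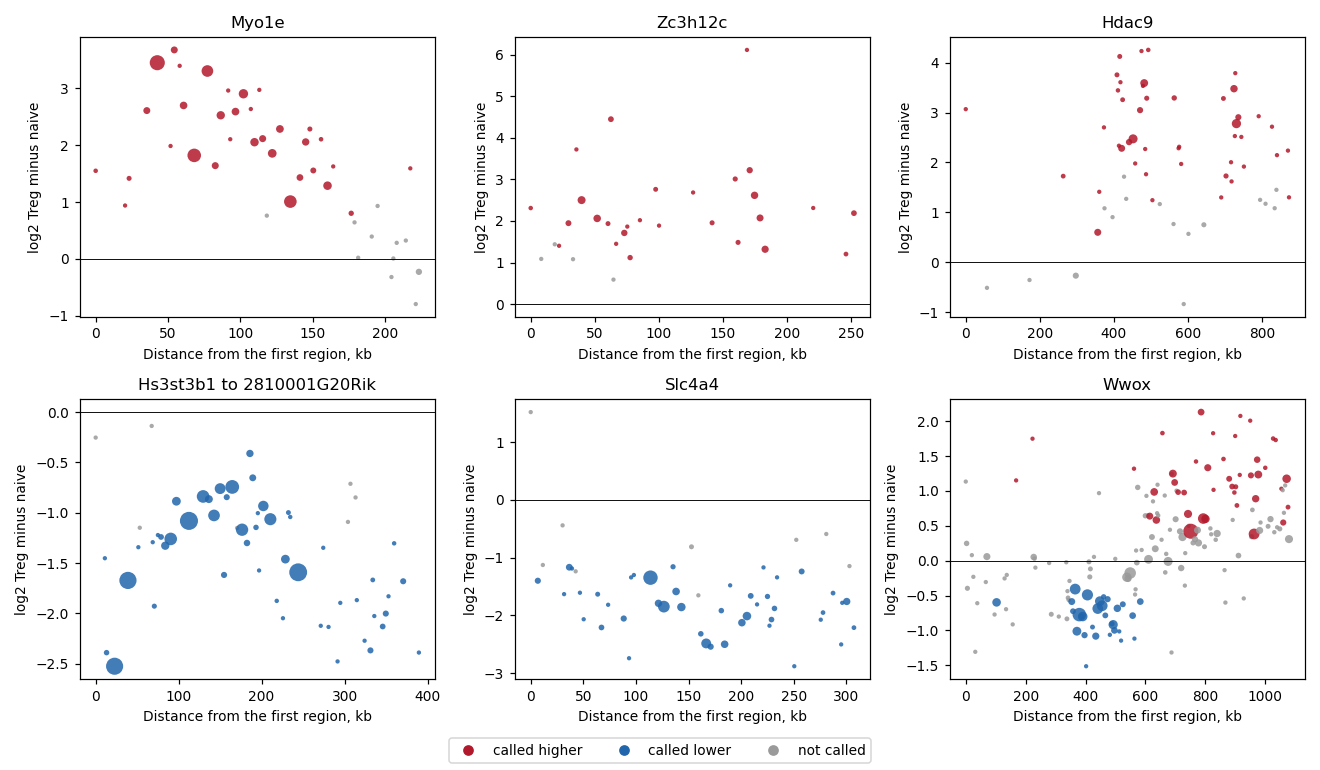
log2 change (Treg minus naive) of each tested region against its distance in kb from the first region of the locus, for 6 loci; point area grows with region width, up to a limit, and colour gives the call. Myo1e, Zc3h12c and Hdac9 hold gains, the Hs3st3b1 and Slc4a4 loci hold losses, and in Wwox the 30 losses precede 39 of the 42 gains.

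Broad domains, taken as regions of at least 10 kb, were called more often than narrow ones. Of 2455, 509 were higher in Treg (20.7%) and 900 lower (36.7%), with a median log2 change of -0.11. Of the 505 of at least 20 kb, 99 were higher and 226 lower. Under 500 bp, 8.87% were higher and 4.91% lower. Broad domains also held more reads, with a median of 590 against 24.75 under 10 kb, which makes a call easier. Among broad domains with 400 to 800 reads, 19.8% were higher and 35.1% lower. For regions of 5 to 10 kb with as many reads, these shares were 6.30% and 49.2%. The median change of called broad domains was 0.51 for gains and -0.36 for losses, against 1.20 and -0.81 for narrower regions. Only called regions enter these medians, and a region with few reads needs a larger change to be called. The medians therefore do not compare broad with narrow regions as such.

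The excess of losses among broad domains depended on the filter and on the scaling. With TMM and a mean of at least 50 reads, 699 were higher and 839 lower. It was seen that the change fell with read density: with regions put in 10 equal classes of reads per kb over the 4 Treg and naive libraries, the median log2 change was 0.40 in the sparsest class and -0.17 in the densest. With 10 like classes made from raw reads per kb, 1204 broad domains lay outside the 2 densest. Of these, 370 were higher and 305 lower with TMM, with a median of 0.00. With reads per kb taken over all 8 pull-downs there was no such trend, and the classes ran from -0.03 to 0.03. Offsets that follow density over the 8 libraries were tried first, after a change with density was seen, and gave 553 broad domains higher and 998 lower, with a median of -0.11. They left the trend over the 4 libraries in place. Offsets that follow density over the 4 libraries, fitted to those libraries only, were then added and gave 712 higher and 718 lower, with a median of -0.02. Gains thus made up 36.1% of called broad domains with TMM, 35.7% with the 8-library offsets and 49.8% with the 4-library offsets. Which of these scalings is nearer the truth was not tested.

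**Figure D3:**
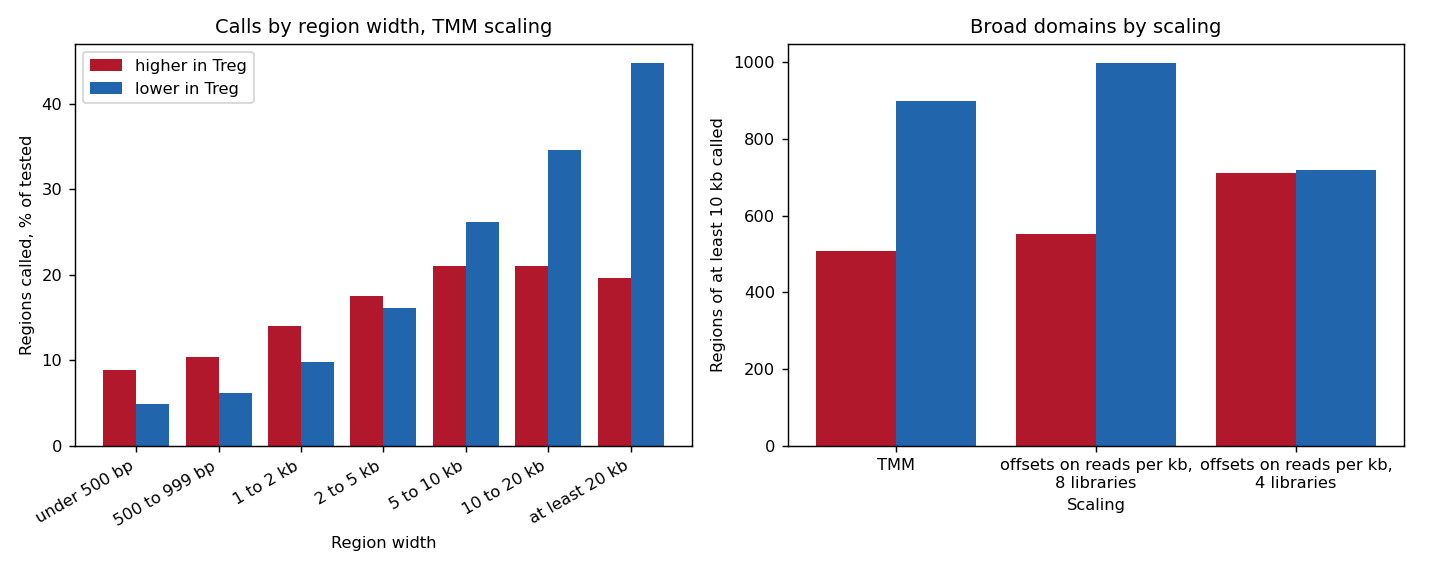
Left, share of tested regions called higher or lower in Treg by region width, with TMM scaling. Right, number of regions of at least 10 kb called under 3 scalings: 509 higher and 900 lower with TMM, 553 and 998 with offsets on reads per kb over 8 libraries, and 712 and 718 with those over the 4 Treg and naive libraries.

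The 16 largest changes of single domains kept their direction and call under both kinds of offset. The strongest gain outside the classic loci was an intron of Myo1e (chr9:70059008-70070729), with 44.7 and 43.0 CPM in Treg, against 5.00 and 3.19 CPM in naive cells (log2 3.45, SE 0.15; 3.34 with the 4-library offsets). An intron of Ppp2r5c, a regulatory subunit of protein phosphatase 2A (chr12:111611379-111630216), had 80.1 and 90.0 CPM in Treg, against 8.97 and 12.1 CPM in naive cells (log2 2.99, SE 0.11). The Myo1e domain lay near its Treg inputs of 42.9 and 37.2 CPM, and the Ppp2r5c domain above its Treg inputs of 67.8 and 56.1 CPM. In naive cells both lay far below their inputs. An intron of Arhgap20 (chr9:51610151-51620836) had 54.7 and 51.6 CPM in Treg, against 7.95 and 7.61 CPM in naive cells (log2 2.77, SE 0.13). The strongest loss covered the 3′ end of Hs3st3b1 (chr11:63702327-63717394), with 14.1 and 15.7 CPM in Treg, against 84.1 and 87.7 CPM in naive cells (log2 -2.53, SE 0.11; -2.54 with the 4-library offsets). Domains at Aqr, a splicing helicase (log2 -1.41), near Setd4 (-1.38), in Cog7 (-1.37), in Slc4a4 (-1.35) and in Myo10 (-1.26) followed.

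The 5 widest domains were all lower in Treg with TMM, by small amounts. The widest, 128.9 kb over Bach2, a repressor that holds naive T cells quiescent (chr4:32345584-32474440), had 920.5 and 958.4 CPM in Treg, against 1184 and 1178 CPM in naive cells (log2 -0.33, SE 0.07). Lef1, a naive T cell factor, had 1012 and 1037 CPM in Treg, against 1463 and 1463 CPM in naive cells (log2 -0.51, SE 0.07). Prex1, Bcl11b and Gtf2i had log2 -0.22, -0.29 and -0.28. With the 4-library offsets Bach2, Lef1 and Gtf2i were still called lower (log2 -0.15, -0.27 and -0.12), while Prex1 (-0.08, adjusted p = 0.12 by edgeR) and Bcl11b (-0.05, adjusted p = 0.28 by edgeR) were not. Several genes carried many domains: Foxp1 had 13, of which 1 was higher and 9 lower, and Satb1 11, of which 0 and 10. Foxn3, a forkhead repressor, went the other way with 9 of 10 higher and 0 lower, and Tgfbr3 had 8 of 8 lower. These were picked after their values were seen, with TMM calls only. Over all broad domains 20.7% were higher and 36.7% lower. Among other genes with many domains the share called varied. Arid1b had 3 of 9 lower and Akap13 1 of 7 higher, while Runx1 had 6 of 7 lower, Ppm1h 6 of 6 lower and Rora 5 of 5 higher. Domains of 1 gene are neighbours and not independent.

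Gene groups were read against the shares of all genes, 20.0% higher and 19.2% lower, with a median log2 of 0.00. Factors of NF-κB and NFAT signalling were higher for 14 of 23 members and lower for 3 (median 0.27). Rel had the largest change among them (log2 1.18), then Nfkb2 (1.07) and Nfkbie, an inhibitor of NF-κB (0.86). Activation-linked transcription factors were higher for 14 of 26 and lower for 2 (median 0.35), led by Bhlhe40 (1.29), Maf (1.26) and Batf (0.92), a partner of AP-1. In the TNF receptor superfamily and its ligands 12 of 27 were higher and 4 lower, with Cd40 (2.56) and Cd70 (1.79) first and Ltb, a lymphotoxin chain, lowest (-1.03). Cd40, Cd70 and Ltb hold few reads: Cd40 had 2.02 and 1.73 CPM in Treg, against 0.40 and 0.21 CPM in naive cells. Cd70 had 8.62 and 7.16 CPM in Treg, against 2.66 and 1.92 CPM in naive cells. Negative feedback genes of the MAP kinase path and ubiquitin ligases had 14 of 32 higher, including Spry1 (1.23), Cish (1.17) and Dusp4 (0.92), and 9 lower.

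T cell receptor signalling genes showed the opposite picture, with 26 of 36 lower and 4 higher (median -0.23). The losses were small: Grap2, an adaptor, fell by 0.57 on the log2 scale, Cd3g by 0.50, Dgka, a diacylglycerol kinase, by 0.43, and Rasgrp1, a Ras activator, by 0.40. Cblb, a ubiquitin ligase that restrains the receptor, was among the 4 that rose (log2 0.34), with Sh2d2a (0.35), Vav3 (0.27) and Tec (0.12), the last not called over its transcript alone (adjusted p = 0.051 by edgeR). With the 4-library offsets 20 were lower and 5 higher, and the median was -0.11. Interferon-stimulated genes were lower for 15 of 31 and higher for 1, with Oas2 lowest (log2 -0.96) and Ifih1, a sensor of viral RNA, the 1 that rose (0.37). DESeq2 called 7 lower and 1 higher. Cytosolic ribosomal proteins were lower for 10 of 37 and higher for 0, while the 4-library offsets gave 6 and 2 and DESeq2 3 and 0. Naive-cell transcription factors were lower for 8 of 24 and higher for 2, led by Satb1 (-0.44) and Lef1 (-0.40), but with the 4-library offsets 6 were higher and 6 lower, and the median turned to 0.01.

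Receptors were mixed. Cytokine receptors had 11 of 40 higher and 13 lower: Il1r2, the IL-1 decoy receptor, rose (log2 1.07), while Tgfbr3 (-0.83) and Il7r, which naive cells need for survival (-0.66), fell. Among chemokine and lipid-mediator receptors 11 of 24 were higher, led by Gpr15, a colon homing receptor (1.57), and Cxcr3 (1.10), and 5 lower, led by Ccr1 (-0.93). Over its transcript alone Gpr15 had log2 0.69 and was not called (adjusted p = 0.059 by edgeR). Cxcr3 and Ccr1, like Sema6d, Hs3st5 and Cacng6 among the genes named next, had no tested value over their transcripts, so their sums rest on regions assigned from outside. Guidance receptors and ligands had 10 of 28 each way, with Sema6d at 1.18, Ntn4 at 1.13, Slit3 at -0.89 and Plxna4, with few reads, at -1.59. Glycan and heparan sulfate enzymes had 11 of 36 higher and 14 lower. The 3 largest losses were 3-O-sulfotransferases: Hs3st3a1 (-2.30), Hs3st3b1 (-1.87) and Hs3st5 (-0.73). Hs3st3a1 and Hs3st5 rest on few reads, with means of 43.5 and 40.75, and the 1 tested region of Hs3st5 was not called. Hs3st3a1 also lies near the Hs3st3b1 cluster on chromosome 11, so these are not separate loci throughout. Myosins and regulators of the actin cytoskeleton had 11 of 42 higher, with Dock1, Coro2a and Myo1e far ahead, and 21 lower, led by Rhof (-0.51), Myo10 (-0.49) and Arhgef6 (-0.49). In the group of TET and DNMT enzymes and their partners 12 of 29 were higher, including Tet2 (0.74), and 6 lower, including Tet1 (-0.68). Nuclear receptors had 8 of 28 higher, led by Rarg, a retinoic acid receptor (1.04), and Nr4a1 (0.76), and 4 lower. Genes of apoptosis and survival had 9 of 26 higher, led by Pmaip1 (1.56), and 3 lower. Regulators of G-protein signalling had 7 of 20 higher, with Rgs16 (1.05) and Rgs9 (1.04), and 6 lower. Integrins and adhesion molecules had 12 of 28 higher, led by Itgav (0.84), and 11 lower, led by Itgax (-0.59) and Itgb3 (-0.49). Genes of the PI3K, mTOR and AKT path had 5 of 30 higher, led by Tbc1d4 (log2 1.00), and 9 lower, led by the kinase Sgk1 (-0.67). Ion channels and calcium handling had 11 of 37 higher, with Cacng6 (1.74, on a mean of 44 reads) and the ryanodine receptor Ryr2 (1.56) first, and 14 lower, among them Stim1 (-0.48) and Orai2 (-0.46) of store-operated calcium entry. Lipid genes had 7 of 34 higher and 10 lower, and Notch and Wnt genes 8 of 31 each way. The classic Treg loci, from which the other groups were kept apart, had 30 of 35 higher and 1 lower.

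**Figure D4:**
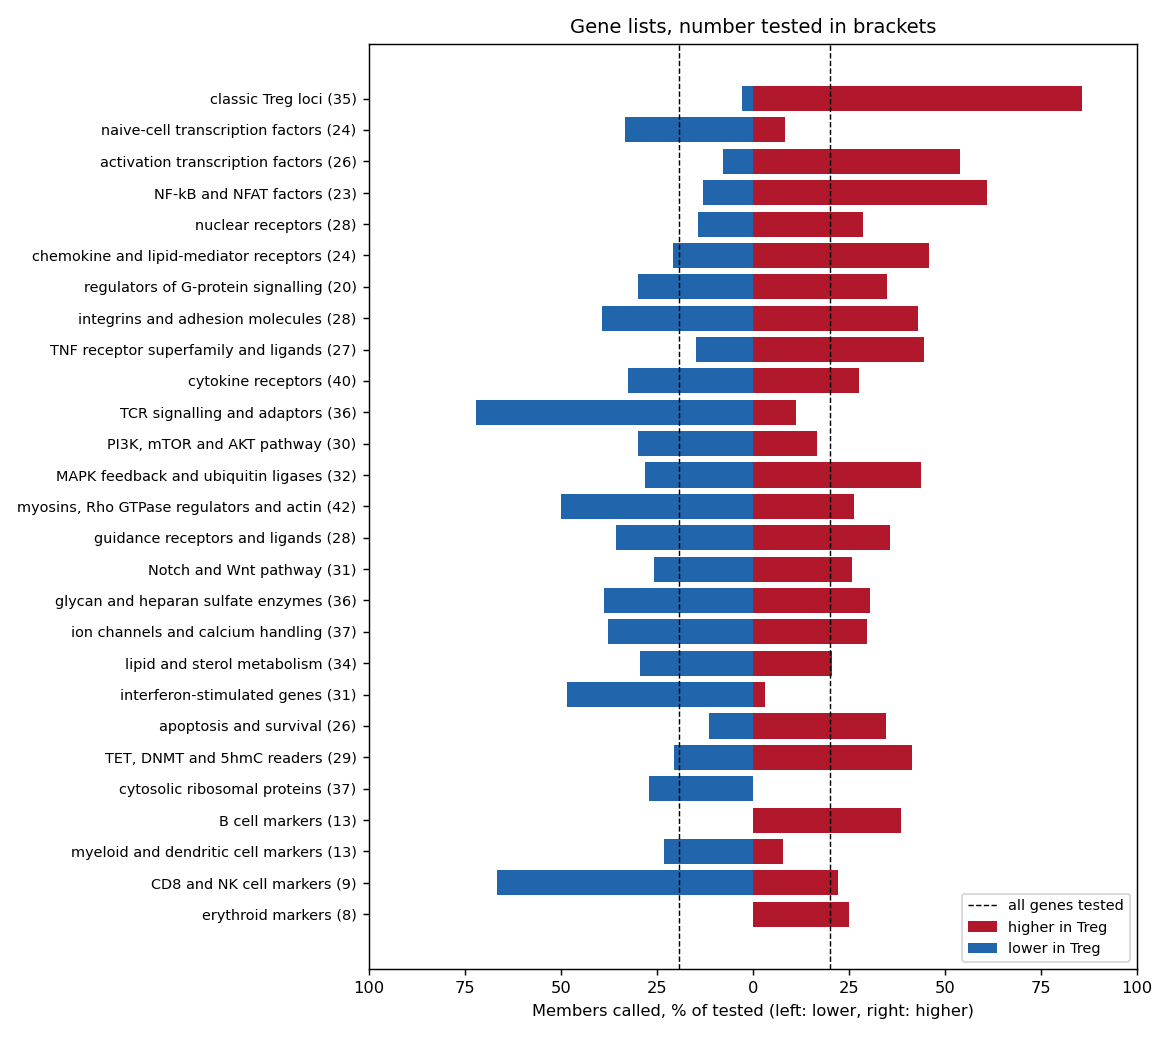
Share of tested members of each of 27 gene lists called higher (right) or lower (left) in Treg, with the number tested in brackets; dashed lines mark the shares over all genes, 20.0% and 19.2%. NF-κB and activation factors extend to the right and T cell receptor signalling to the left.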

How the data were processed

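Deposited values are raw counts of reads in 177720 regions for 16 libraries. Build and annotation are mm9, per the file headers. The name of the deposited table gives its regions as a union of MACS2 broad peaks (q 0.01). The submitters' processing notes list MACS2 2.1.0.20151222, SAMtools 1.7, Trim Galore 0.4.2 and bcl2fastq 2.20.0.442. For the aligner, the counter and any pooling before peak calling, the sources used here give no statement. Spike-in reads were not used, so a shift of all 5hmC would not be seen.

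Counts of the 8 pull-downs were fitted with edgeR 4.0.16 in R 4.3.3 (1 group term, TMM, filterByExpr with a minimum count of 10, quasi-likelihood F test, 4 residual degrees of freedom, Benjamini-Hochberg, threshold 0.05), per region and summed per symbol over all regions assigned to it. Within-gene differences used edgeR's diffSpliceDGE. Pull-down CPM use library sizes scaled by TMM; input CPM use plain totals. DESeq2 1.42.0, other scalings, filters, gaps and widths, and each library left out were alternatives. Adjusted p-values are edgeR's. A sum per gene mixes regions that can move in opposite ways.

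The 12 genes named per direction have the largest changes among called genes with a mean of at least 100 reads, no overlap between the groups, the same call over the transcripts alone, and no place among classic Treg loci; predicted genes are left out. Gene lists, 27 in all, name up to 4 members per direction; some members are not reported here. The comparison, members and lists were chosen with earlier results of these data known. The offsets on read density and the start-site rule were chosen after seeing these values. A match of 1842 start-site regions to 1 RefSeq promoter was narrowed to 728 by asking that transcript lengths differ by at most 1000 bp, which changed the examples shown.

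On simulated counts the region test recovered 42.4% of 2-fold and 83.2% of 4-fold changes, and the gene test 89.8% and 98.0%. Replicate numbers showed no sign of pairing (correlation of deviations 0.02 over 36011 regions). Since replicates varied little beyond counting error, this check could miss a pairing. Replicates varied 1.23 times counting error in Treg and 1.12 times in naive cells.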

Additional observations from a re-analysis of the deposited data

How the results depend on the processing

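Direction and call held for all 24 named genes in all 336 combinations of gene and alternative. Of the 14 alternatives, 1, the transcripts alone, was part of the naming rule, so its outcome was given. The rule also took the largest called changes and asked for no overlap between the groups. That left little room for a library left out to turn a direction, or for other scalings and filters to undo a call. The 336 are thus no independent support. Counts moved more. DESeq2 gave 5654 regions higher and 2498 lower, and 370 broad domains higher and 526 lower. It also gave 48 stretches higher and 8 lower, and 1816 genes higher and 1459 lower. A mean of at least 50 reads gave 5640 regions higher and 4944 lower, 173 stretches higher and 2174 uneven genes, since fewer regions were tested. Broad domains were then 699 higher and 839 lower, a smaller excess of losses than in the main setting. A width of at least 20 kb gave 99 broad domains higher and 226 lower. Leaving out each library in turn gave 10131 to 12158 regions higher and 7232 to 9098 lower, 590 to 715 broad domains lower, 153 to 220 stretches higher and 46 to 90 lower, and 3837 to 4549 uneven genes. The lowest counts came without naive replicate 2, the deepest of the 4 pull-downs, and a group with 1 library left is assumed to vary like the others. With the Treg and naive libraries alone, 19192 regions were higher and 14214 lower. With the replicate number as a replicate block in those libraries, 19351 regions were higher and 14530 lower. The labels link these samples only by the replicate number. The offsets over the 4 libraries, chosen after seeing the data, removed the excess of lower broad domains (712 higher, 718 lower, against 509 and 900), and those over 8 libraries, also chosen afterwards and tried first, did not (553 and 998). Depth limits single regions more than gene sums: of simulated 2-fold changes, 42.4% were recovered per region and 89.8% per gene.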
